A study of Arabidopsis thaliana with 12 samples.

Results

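The data describe 22 genes of Arabidopsis thaliana whose probes were bright on average over all arrays of the wild type and a photosystem I mutant, and whose place among all probes overlapped between the genotypes. The genes were chosen by 3 conditions. The probe had 1 gene symbol in the platform annotation, its mean deposited intensity over the 12 arrays was at least 1.5, and the range of its within-array ranks on the WT arrays met the range on the psan arrays. Of the 3439 probes, 692 had 1 symbol, 50 of those reached a mean of 1.5, and 27 of those 50 had rank ranges that overlapped. The rule left out 5 of the 27, the photosynthesis genes LHB1B2, PSBW, PSBY, PSB27 and PRK, so the absence of photosystem genes among the 22 comes from the rule. A mean of at least 1.5 in each genotype on its own held for 19 of the 22, with AT3G04210 (1.31) and AT5G06790 (1.39) below it in WT and AT2G36480 (0.931) below it in psan. Because intensity and rank overlap chose the genes, both are given here as a description, with no test.

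The series compared total RNA of wild-type plants (WT, 6 arrays) with that of psan plants (6 arrays), both in ecotype Columbia 0. The psan plants have no PSI-N, the photosystem I protein that the nuclear gene PSAN encodes. The tissue, the growth conditions, the plant age and the nature of the psan allele were not given in the sources used here. Arrays are numbered 1 to 6 in each genotype after their sample titles. No label ties them to separate plants, so a p-value here covers array-to-array spread alone, part of which may be technical.

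Photosystem I takes electrons from plastocyanin, a copper protein of the thylakoid lumen, and passes them to ferredoxin on the stromal side. PSI-N lies on the lumen side, where plastocyanin docks. Most chloroplast proteins are encoded in the nucleus, and signals from the photosynthetic electron chain are known to alter nuclear transcript levels.

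The files pair 3 of the 22 probes with a gene name and 19 with a locus identifier alone, so a role is stated for those 3 genes only. CCL (AT3G26740, CCR-like) is known for a short-lived transcript under circadian control. XERICO (AT2G04240) encodes a small RING-type zinc finger protein that raises abscisic acid levels and drought tolerance when overproduced. FZL (AT1G03160, FZO-like) encodes a dynamin-related GTPase of the chloroplast that shapes thylakoid membranes.

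PSAN itself (AT5G64040) followed the labels. Its deposited intensity ran from 4.40 over a median of 6.16 to 7.77 on the WT arrays and from 0.0681 over 0.183 to 0.243 on the psan arrays, with an exact two-sided permutation p of 0.00216, the smallest that 6 against 6 arrays can give. The labels do not say whether neighbouring numbers are repeats of 1 sample, and with these averaged to 3 values a group the same exact test gave 0.1, which no difference can go below at that size. Array means lay between 0.834 and 0.980, and 161 to 521 probes per array were at 0. WT arrays 1 and 2 had the most probes at 0, 499 and 521. Of the green tissue markers fixed by symbol, 5 had a single-symbol probe (PSAN, PSBY, PSB27, LHB1B2 and PSBW) and none was at 0 on any array. LHB1B2 had 27.5 ± 14.1 in WT and 19.4 ± 1.58 in psan (mean intensity ± SD, n = 6 arrays each, here and in the next sentence). PSBW had 29.6 ± 4.31 and 28.4 ± 7.35, PSBY 2.60 ± 0.954 and 2.81 ± 0.586, and PSB27 1.24 ± 0.429 and 2.27 ± 0.414, so the markers did not share a direction. No single-symbol probe matched the seed or root markers.

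The 22 genes held 4.22% to 7.23% of the summed intensity of an array. That share was lowest on WT arrays 1 and 2, at 4.22% and 4.44%, and next lowest on psan array 3, at 4.73%. None of the 22 was at 0 or at the ceiling of the scale, just under 100, on any array. An intensity depends on the probe as well as on the transcript, so the brightness of a probe is not an amount of RNA and the genes are compared with themselves across arrays, not with each other.

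At the lower limit of the mean, the 3 genes just inside were AT2G36480 with 1.58, FZL with 1.60 and AT5G06790 with 1.69. The 3 probes just outside with overlapping ranks were LpxA with 1.47, AT2G46300 with 1.44 and CML30 with 1.27. Counting rank 1 as the brightest probe, AT3G09850 had the narrowest shared range of ranks, with 5 to 16 in WT and 8 to 13 in psan. It was not close to separation, since its psan range lay wholly inside its WT range and its rank numbers are small. AT5G06790 overlapped only in part, with ranks 286 to 408 in WT and 221 to 303 in psan. The closest excluded probe was AT2G33180, with ranks 35 to 63 in WT and 65 to 233 in psan, a gap of 2 ranks. It was followed by AT4G32060 with a gap of 10 ranks and AT1G62250 with a gap of 16.

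**Figure D1:**
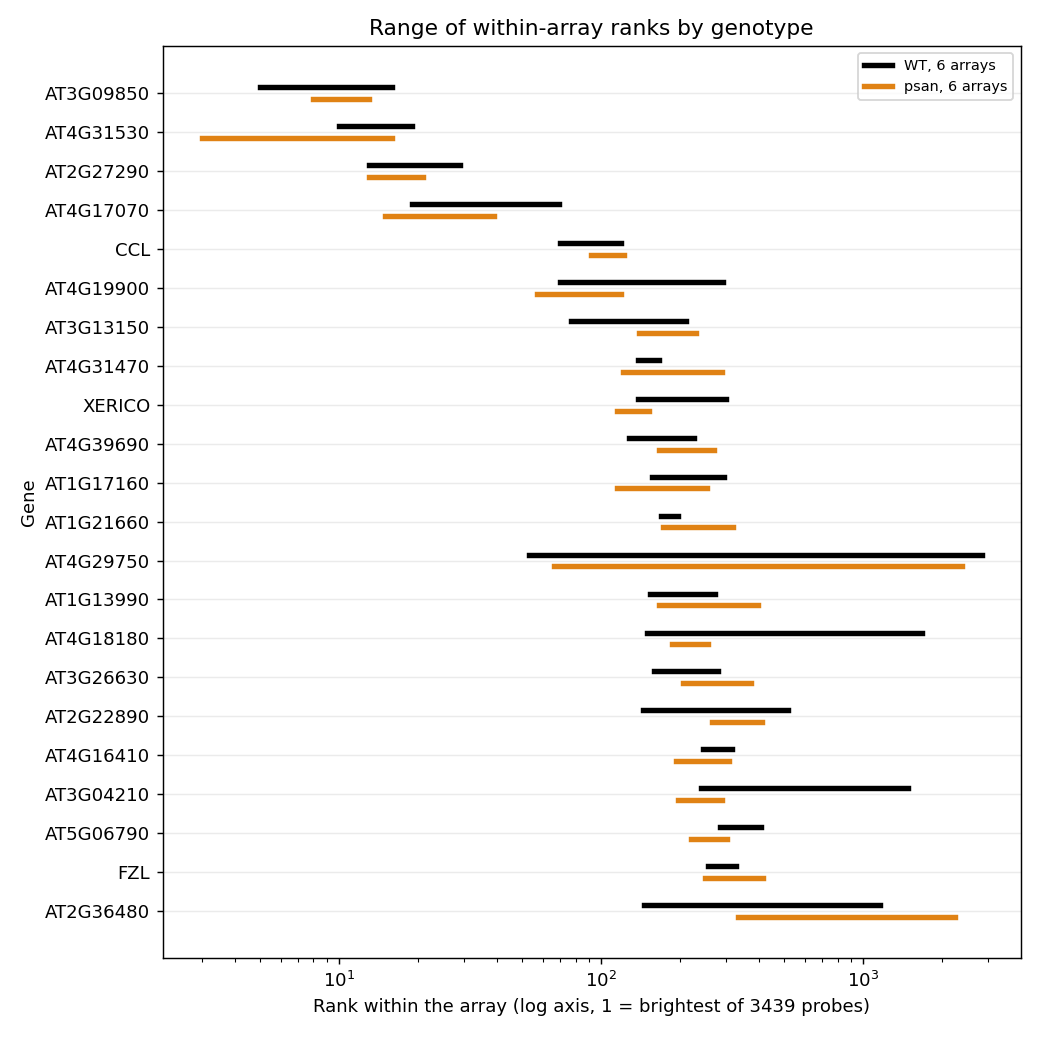
Range of within-array ranks of the 22 genes on a log axis, where rank 1 is the brightest of 3439 probes, with black bars for the 6 WT arrays and orange bars for the 6 psan arrays. The bars of each gene overlap because the rule required it, and AT4G29750 has the widest bars, from rank 53 to 2835 in WT and from 66 to 2378 in psan.

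The share of probes without rank overlap can be set beside that of the bright probes. Over all probes, 19.1% had rank ranges that did not overlap, against 42.1% of the 323 probes with a mean of at least 1.5 and 46% of the 50 bright single-symbol probes. These shares are descriptions, and the difference between them was not tested.

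Of the 3 genes with a name, CCL was among the steadiest. CCL had intensities from 4.46 over a median of 4.72 to 6.44 in WT and from 3.90 over 4.33 to 4.58 in psan. The high end of WT was held by WT arrays 1 and 2, at 6.44 and 6.31, and the other 10 arrays of both genotypes lay between 3.90 and 4.82. The WT mean was 5.19 ± 0.928 (SD, n = 6) and the psan mean 4.26 ± 0.298 (SD, n = 6).

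XERICO had intensities from 1.31 over a median of 2.95 to 3.86 in WT and from 2.92 over 3.36 to 3.65 in psan. WT arrays 1 and 2 were low, at 1.31 and 1.49, and the remaining WT arrays, at 2.71 to 3.86, spanned the whole psan range. FZL had intensities from 1.28 over 1.51 to 1.79 in WT and from 1.13 over 1.89 to 2.07 in psan. In psan, FZL was low on arrays 3 and 4, at 1.13 and 1.15, and between 1.83 and 2.07 on the other 4, while its WT arrays lay between those levels.

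The 4 probes with a mean above 10 belonged to genes known here by locus alone. AT3G09850 had intensities from 30.5 over a median of 61.1 to 76.7 in WT and from 30.8 over 50.2 to 64.6 in psan. In both genotypes arrays 1 and 2 were lowest, close to 31, and arrays 5 and 6 were highest. The psan range lay wholly inside the WT range.

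AT4G31530 had intensities from 23.6 over 41.3 to 46.8 in WT and from 29.8 over 64.7 to 84.5 in psan. Its psan arrays split, with arrays 3 and 4 at 30.02 and 29.8 and the other 4 at 61.5 or more, above each WT array. AT2G27290 had intensities from 15.4 over 29.6 to 36.6 in WT and from 21.4 over 23.8 to 33.2 in psan, with WT arrays 1 and 2 below each psan array.

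AT4G17070 had intensities from 6.57 over 21.8 to 24.5 in WT and from 8.80 over 19.3 to 26.8 in psan. The 2 means, 18.6 ± 7.29 (SD, n = 6) and 18.7 ± 8.41 (SD, n = 6), were almost equal while single arrays differed 4.08-fold. In AT4G17070 neighbouring array numbers differed widely in 2 of the 6 pairs, and the median ratio within pairs was 1.16. WT array 1 had 6.57 against 13.2 on WT array 2, and psan array 3 had 8.80 against 26.1 on psan array 4.

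**Figure D2:**
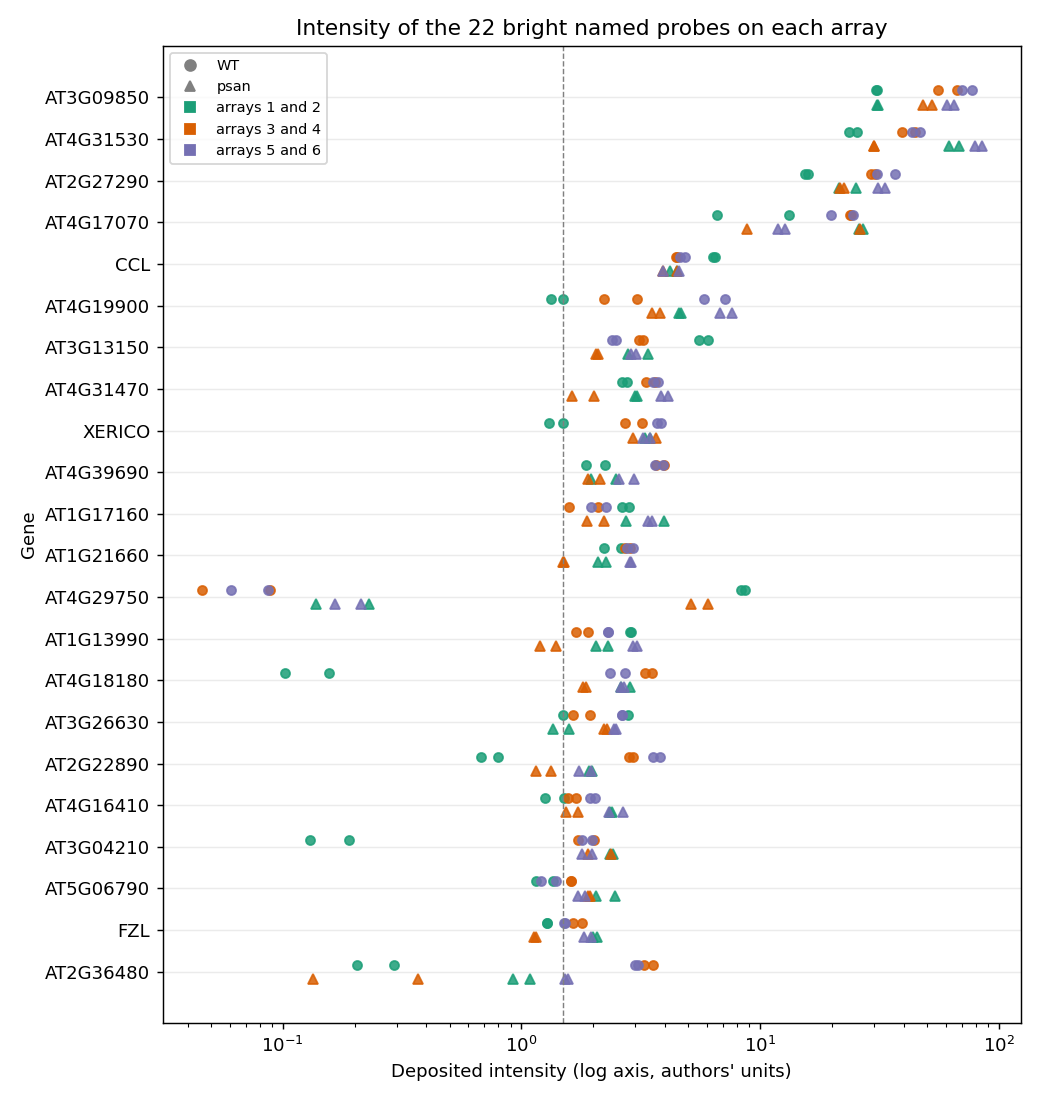
Deposited intensity of the 22 genes on each array, on a log axis, with circles for WT, triangles for psan, colours for arrays 1 and 2, 3 and 4, and 5 and 6, and a dashed line at the minimum mean of 1.5. In 16 genes the highest point is less than 5-fold above the lowest, while AT4G29750, AT4G18180, AT3G04210 and AT2G36480 have points below 0.4 as well as above 1.5.

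In 6 genes the highest array exceeded the lowest at least 5-fold, and in each of them WT arrays 1 and 2 stood apart from at least some of the other WT arrays. The widest case was AT4G29750. It had intensities of 8.62 and 8.30 on WT arrays 1 and 2 and 5.15 and 6.03 on psan arrays 3 and 4. On the other 4 WT arrays it lay between 0.0459 and 0.0882, and on the other 4 psan arrays between 0.137 and 0.229. Its median over the 12 arrays was 0.189, so the mean of 2.43 that placed it among the bright probes rested on 4 arrays, and the label of an abundant transcript shared by the genotypes does not describe it.

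AT4G18180 went the other way in WT. Its intensities were 0.156 and 0.102 on WT arrays 1 and 2, against 2.34 to 3.53 on the other WT arrays, and 1.81 over a median of 2.61 to 2.86 in psan. AT3G04210 had the same arrangement, with 0.190 and 0.131 on WT arrays 1 and 2, 1.72 to 2.02 on the other WT arrays and 1.79 over 2.16 to 2.42 in psan. The 10 arrays other than WT 1 and 2 lay between 1.81 and 3.53 for AT4G18180 and between 1.72 and 2.42 for AT3G04210.

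AT2G36480 was low on the arrays where AT4G29750 was high. It had 0.293 and 0.204 on WT arrays 1 and 2 and 0.368 and 0.134 on psan arrays 3 and 4. The other WT arrays lay between 2.99 and 3.57 and the other psan arrays between 0.921 and 1.56, without overlap. The arrays set aside there were those where this gene was low. The share over all probes without them was not counted, so nothing is read from that separation. The WT mean was 2.23 ± 1.55 (SD, n = 6) and the psan mean 0.931 ± 0.587 (SD, n = 6). The median over the 12 arrays, 1.30, was also below the limit of 1.5.

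AT2G22890 had 0.676 and 0.796 on WT arrays 1 and 2, 2.83 to 3.79 on the other WT arrays, and 1.15 over a median of 1.83 to 1.98 in psan. No WT array of AT2G22890 fell inside the psan range of ranks, since WT lay partly below and partly above it. AT4G19900 differed between pairs of WT arrays, with 1.49 and 1.33 on arrays 1 and 2, 2.22 and 3.04 on arrays 3 and 4, and 7.12 and 5.79 on arrays 5 and 6. In psan its intensities ran from 3.52 over 4.62 to 7.61, and arrays 5 and 6 were again the highest.

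The remaining 9 genes, all known by locus alone, stayed within 3-fold across the 12 arrays. AT5G06790 had the smallest relative spread of the 22, with a coefficient of variation within genotypes of 13.4%. Its intensities ran from 1.15 over 1.37 to 1.62 in WT and from 1.73 over 1.92 to 2.46 in psan. It was the 1 gene of the 22 whose deposited intensities did not overlap between genotypes, which held for 19.6% of all probes, although its ranks did overlap, with 286 to 408 in WT and 221 to 303 in psan.

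AT4G16410 had intensities from 1.26 over 1.62 to 2.04 in WT and from 1.53 over 2.34 to 2.67 in psan, and its 4 highest arrays were all psan. AT1G17160 had 1.58 over 2.17 to 2.81 in WT and 1.88 over 3.07 to 3.95 in psan. AT1G21660 had 2.22 over 2.74 to 2.93 in WT and 1.49 over 2.17 to 2.88 in psan. In AT1G21660 the WT arrays were close together, with a coefficient of variation of 9.46%, and psan arrays 3 and 4 were the lowest of all 12.

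AT4G39690 had intensities from 1.87 over 3.63 to 3.97 in WT and from 1.89 over 2.31 to 2.97 in psan. Its 4 highest arrays were WT arrays 3 to 6, while WT arrays 1 and 2 had 1.87, just below the lowest psan array, and 2.25, inside the psan range. AT3G13150 had 2.40 over 3.16 to 6.04 in WT and 2.06 over 2.84 to 3.38 in psan. For AT3G13150 WT arrays 1 and 2 were the highest of all 12, at 5.52 and 6.04.

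AT4G31470 had intensities from 2.65 over 3.44 to 3.73 in WT and from 1.63 over 3.02 to 4.10 in psan. AT1G13990 had 1.70 over 2.30 to 2.87 in WT and 1.20 over 2.18 to 3.04 in psan. In both, psan arrays 3 and 4 were the lowest of all 12 and psan arrays 5 and 6 the highest. AT3G26630 had 1.49 over 2.28 to 2.81 in WT and 1.36 over 2.24 to 2.49 in psan, with psan arrays 1 and 2 at 1.59 and 1.36.

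The comparison of genotypes asked which transcripts differ when PSI-N is missing, and the 22 genes are those that the rank rule kept from the bright probes without a clear separation. Values were quantile normalised and fitted with limma, psan minus WT, over all probes. Of 3371 probes tested, 1010 (30%) passed an adjusted p of 0.05, with 484 (14.4%) higher and 526 (15.6%) lower in psan, and 0 of the 22 genes did. With neighbouring array numbers averaged to 3 values a group, 149 of 3363 probes (4.43%) passed, and again 0 of the 22. At an unadjusted p of 0.05 it was 1 of the 22, against 40.7% of all probes. Since the rule used the same contrast, nothing is read from these counts. The split of the calls over all probes depended on the scaling, with 753 higher and 254 lower on the values as deposited and 341 higher and 676 lower with each array centred on its median.

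After quantile normalisation 11 of the 22 had a log2 fold change above 0 and 11 below 0. The median was 0.016, beside -0.015 over all probes and 0.0043 over the 323 bright probes. On the values as deposited it was 0.012, beside 0.46 over all probes. With median centring it was -0.66, beside -0.20 over all probes, so its closeness to all probes depended on the scaling. After quantile normalisation the size of the log2 fold change was under 0.5 in 16 genes. The rule kept genes with overlapping ranks, and quantile normalised values follow the ranks. Small sizes and a median near 0 in that setting therefore come in part from the rule, and nothing is read from them. The highest values were those of AT3G04210 with 1.03 ± 0.54 (SE), AT4G18180 with 0.91 ± 0.69 and AT4G19900 with 0.86 ± 0.37. The lowest were AT2G36480 with -1.29 ± 0.77, AT4G39690 with -0.44 ± 0.21 and AT2G22890 with -0.43 ± 0.36. CCL had -0.08 ± 0.19, XERICO 0.46 ± 0.23 and FZL -0.04 ± 0.19. FZL turned to 0.13 on the values as deposited, XERICO turned to -0.26 with median centring, and CCL turned to 0.13 without WT arrays 1 and 2.

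Some of these values rested on WT arrays 1 and 2. Without them AT3G04210 had 0.13 in place of 1.03, AT4G18180 had -0.26 in place of 0.91 and AT4G19900 had 0.45 in place of 0.86. AT4G29750 went from 0.61 to 2.80 and AT2G36480 from -1.29 to -2.20. XERICO had 0.15 in place of 0.46 and AT2G22890 -0.94 in place of -0.43. The standard errors of AT4G29750 (1.69), AT2G36480 (0.77), AT4G18180 (0.69) and AT3G04210 (0.54) in the fit over 12 arrays were the largest of the 22. Without these arrays the rank ranges of AT4G29750, AT2G36480, AT2G22890 and AT4G39690 no longer overlapped, which leaves 18 of the 22. Ranges over fewer arrays separate more easily, and the share over all probes without these arrays was not counted. Nothing is therefore read from this count.

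**Figure D3:**
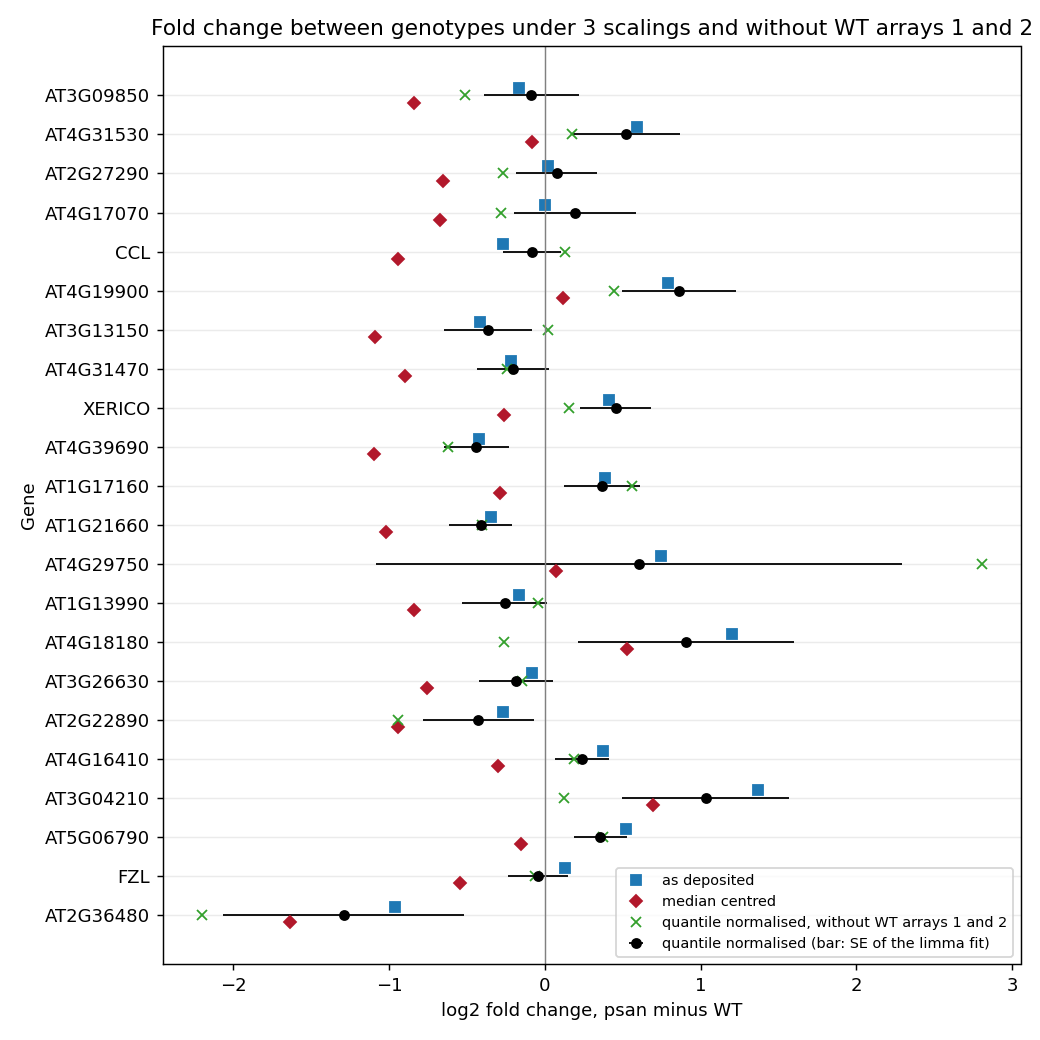
log2 fold change of the 22 genes, psan minus WT, after quantile normalisation (black, with the standard error of the limma fit), as deposited (blue), median centred (red) and quantile normalised without WT arrays 1 and 2 (green). The black points spread around 0 with a median of 0.016, the red points are shifted to a median of -0.66, and the green point of AT4G29750 lies at 2.80.

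In most of the 22 genes the spread within a genotype was wider between pairs of neighbouring array numbers than within them. Within the pairs 1 and 2, 3 and 4, and 5 and 6, the median ratio of the brighter to the dimmer array ranged from 1.03-fold to 1.36-fold over the 22 genes, and in 17 genes no pair differed by as much as 1.5-fold. The means of the 3 pairs of a genotype spanned 1.18-fold to 133-fold in WT, with a median of 2.0-fold, and 1.03-fold to 31.4-fold in psan, with a median of 1.68-fold. In 20 of the 22 genes the span of the pair means was larger than the median ratio within pairs in both genotypes. A span of 3 means tends to exceed a median ratio even for unrelated arrays, so that count is weak by itself. The exceptions were CCL and XERICO, whose psan pair means spanned 1.04-fold and 1.03-fold. The largest ratio within pairs is a stricter measure. It exceeded both spans in AT4G17070 (2.96-fold, beside 2.56-fold in WT and 2.15-fold in psan). The same held for AT3G26630 (1.88-fold, beside 1.48-fold and 1.68-fold). In CCL, XERICO, AT4G18180 and AT3G04210 it exceeded the psan span alone.

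The pairs that stood apart were mainly WT 1 and 2 and psan 3 and 4. WT arrays 1 and 2 were the lowest of the 6 WT arrays in 15 of the 22 genes, beside 49.8% of the bright probes. They were the highest in 5, beside 22.6% of the bright probes. Psan arrays 3 and 4 were the lowest psan arrays in 12 of the 22, beside 38.7% of the bright probes. They were the highest in 1, AT4G29750, beside 17.3% of the bright probes. Psan arrays 5 and 6 were the highest psan arrays in 10 of the 22, or 45.5%, beside 29.4% of the bright probes. Differences between the 22 genes and the bright probes were not tested. The labels do not say whether the numbered pairs are repeat measurements of 1 sample, and what sets these arrays apart was not tested.

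The coefficient of variation within genotypes ranged from 13.4% in AT5G06790 to 146% in AT4G29750, with a median of 29.0%, beside 25.6% over the 323 bright probes. It was under 20% in 3 genes, AT5G06790, CCL and AT4G16410, and at least 50% in AT4G29750, AT2G36480, AT4G18180 and AT4G19900. In 14 of the 22 the spread was larger in WT than in psan.

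**Figure D4:**
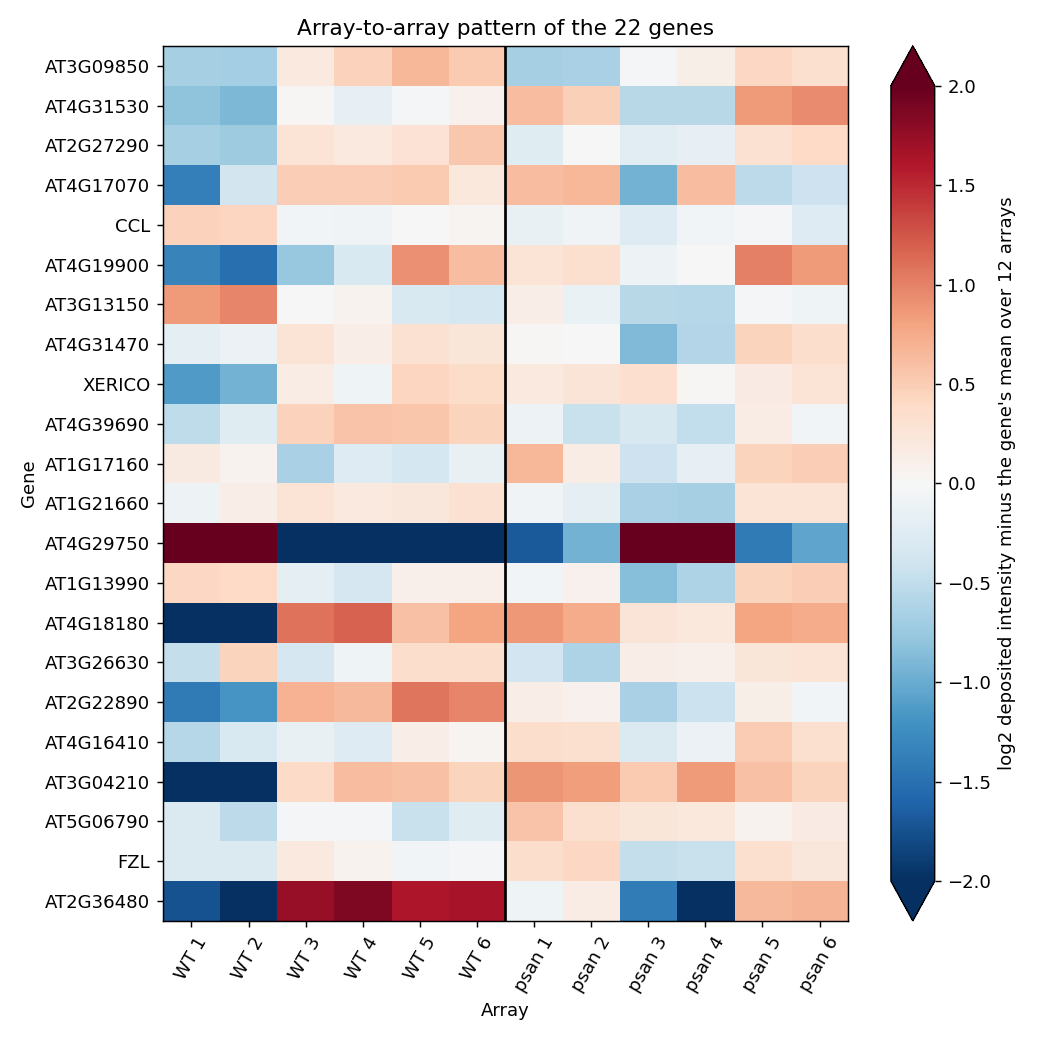
Each gene's log2 deposited intensity minus its own mean over the 12 arrays, in red where an array is brighter and in blue where it is dimmer, with WT arrays left and psan arrays right of the line. Columns with neighbouring numbers look alike in most genes, though not in all, as AT4G17070 shows. AT4G29750 is brightest on WT arrays 1 and 2 and psan arrays 3 and 4, where AT2G36480 is dimmest.

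By their locus identifiers 8 of the 22 genes lie on chromosome 4, or 36.4%, beside 17.4% of the single-symbol probes matched to a locus. On chromosome 5 lies 1, or 4.55% beside 20.7%. The 5 photosynthesis genes that the rule left out lie on chromosomes 1 and 2, which raises the share of chromosome 4. The shares over the 50 bright single-symbol probes were not counted, and no difference was tested. The closest neighbours in the gene table were AT4G31470 and AT4G31530, with 5 genes between them. In psan both were lowest on arrays 3 and 4 and highest on arrays 5 and 6. In WT both were lowest on arrays 1 and 2. These orders were common, found in 12, 10 and 15 of the 22 genes. The r of the 2 genes on the log2 scale over 12 arrays was 0.65, below the 0.93 of AT4G31470 with AT1G21660 on chromosome 1. Their probe numbers were 24 apart, and a link to position was not tested. The next closest were AT3G26630 and CCL, with 11 genes between them, and their order of arrays differed, since CCL was highest on WT arrays 1 and 2 and AT3G26630 had 1.49 on WT array 1 and 2.81 on WT array 2.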

How the data were processed

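Total RNA of WT and psan plants was measured on 6 arrays each. Groups and numbers were taken from the sample titles, which do not say whether arrays are repeats of 1 sample. The deposited file holds 1 linear-scale intensity per probe and array, for 3439 probes. The authors' scaling and the array type were not given in the sources used here. Probes were named through the platform annotation (1 symbol: 692, several: 870, unnamed here: 1877), and the TAIR10.1 gene table was used for names, chromosome and order; 691 of the 692 matched. It holds no gene descriptions, so the functional classes could be searched only in symbols and synonyms, and none of the 22 genes fell in one.

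From the deposited intensities, values were quantile normalised between arrays, those at 0 were dropped, and limma 3.58.1 was run on their log2 (lmFit and eBayes, two-sided tests, R 4.3.3), with Benjamini-Hochberg adjustment over 3371 probes and a threshold of 0.05. The fit was checked on simulated data with independent noise on each array. The real arrays fell into pairs, so that check does not cover dependence between arrays. Members, gene lists and tests were chosen with earlier results of these data known. With no more than 30 members, all were named, with the 3 probes on each side of the minimum and PSAN. The probes nearest the rank limit and the genes of the closing section were added after their values were seen. PSAN was compared with an exact permutation test in SciPy 1.17.1. Alternatives covered the scaling, dim probes, zeros, the sample number as a block, averaged neighbouring numbers, arrays left out and the limits of the choice of genes. The number of arrays limits the precision. Figures were drawn with matplotlib 3.10.9.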

Additional observations from a re-analysis of the deposited data

How the results depend on the processing

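The count of 1010 probes called over all probes fell to 149 with arrays 1 and 2, 3 and 4, and 5 and 6 averaged, which leaves 3 values a group. It was 905 with the sample number as a replicate block, 891 to 986 with each array left out and 801 with the probe number corrected, an alternative chosen after seeing the data. Same-numbered arrays deviated together weakly at most (r from -0.155 to 0.228). Arrays that stood apart in 1 genotype alone can hide a shared deviation, so this does not decide whether the numbers pair the samples. The block changed 1 call among the 22 genes, that of AT4G19900, where 27.8% of all probes were called. The median log2 fold change of the 22 genes, 0.016, was -0.66 with median centring, which subtracts 1 value from each array, and 0.24 with the probe number corrected, where the cause was not tested. With each array left out it ran from -0.049 to 0.099. A minimum mean of 1.0 gave 34 genes and 2.0 gave 17. Of 462 fold changes of single genes under the alternatives, 24 moved by more than the spread between arrays, 16 of them under median centring and 8 after correcting the probe number, and 34 had another sign, in 16 genes. None of the 66 mean levels moved by more than that spread. The spread is that of single arrays, so a mean over all arrays can shift far without exceeding it. Without WT arrays 1 and 2 the mean of AT4G29750 fell from 2.43 to 1.22, against a spread of 3.65. Its log2 fold change went from 0.61 to 2.80, against a spread of 3.24. Values counted as not moved are therefore not shown to be stable. Among the 22 genes, limma called 7 with median centring, all lower in psan, where 20.1% of all probes were called lower. It called 3 with the probe number corrected, all higher (12.4% of all probes), and 3 without WT arrays 1 and 2 (AT4G39690, AT2G22890 and AT2G36480), all lower (14.4%). It called 1 as deposited (AT5G06790) and 1 without WT array 5 (AT4G19900), where 29.9% and 27.2% of all probes were called. Nothing is read from these counts, since the rule used the same contrast. The difference in PSAN, -6.13 in deposited intensity, was the same with neighbouring numbers averaged, an alternative chosen after seeing the data, and its exact permutation p went from 0.00216 to 0.1, the smallest that 3 values a group allow.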

Other observations

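The arrays on which AT4G29750 was bright were also set apart in other named probes, which were chosen after their values were seen. Among 427 other single-symbol probes above 0 on all arrays, GH9B8, a gene of the glycosyl hydrolase 9 family, had the pattern most like it, with r = 0.961 on the log2 scale over 12 arrays that fall into pairs. GH9B8 had intensities of 2.88 and 3.10 on WT arrays 1 and 2 and 0.743 and 0.899 on psan arrays 3 and 4. It lay between 0.0776 and 0.0991 on the other WT arrays and between 0.106 and 0.261 on the other psan arrays.

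The most opposite pattern was that of LAS, a GRAS-family transcription regulator of shoot branching, with r = -0.975 over the same arrays. LAS had 0.106 and 0.174 on WT arrays 1 and 2 and 0.118 and 0.117 on psan arrays 3 and 4, against 0.516 to 0.586 on the other WT arrays and 0.395 to 0.557 on the other psan arrays. AT2G47390 had r = -0.971 and AT2G36480, one of the 22 genes, r = -0.953. These values are descriptions, with no test.

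In 44 groups of 6 intensities, 22 genes in 2 genotypes, no single array was set apart by Dixon's criterion. That criterion looks for 1 far array, and arrays here stood apart in pairs, so the count of 0 says little about how even the arrays were.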
